A study of Mus musculus with 4 samples.

Results

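The retinoic acid receptors and their binding and catabolic partners were examined in the adult brain after ethanol exposure in the trimester 3 injection model. They are 9 genes: the retinoic acid receptors Rara, Rarb and Rarg, the retinoid X receptors Rxra, Rxrb and Rxrg, the cellular retinoic acid-binding proteins Crabp1 and Crabp2, and the catabolic enzyme Cyp26b1. Members were the probe sets whose array annotation gives exactly 1 of these symbols, which found 9 probe sets, 1 for each gene, of 35556 on the array. The study injected C57BL/6J pups with ethanol, as 2 doses of 2.5 g/kg given 2 hours apart on postnatal days 4 and 7, or with saline alone. Total RNA of the whole adult brain, collected at day 60 by the labels, was hybridized to Mouse Gene 1.0 ST arrays. There were 2 arrays per group, called control 1, control 3, ethanol 2 and ethanol 4 after their titles, and each carried the combined RNA of 3 males, each from another litter. All mice were of the same strain and carried no engineered allele in the labels, and ethanol and saline pups had been matched within litters, without a label for which pools share litters. The treatment entry of the labels names the opposite group for control 1 and ethanol 4, so the groups rest on the titles and source names, and the results under the other grouping are given at the end.

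Retinoic acid, made from vitamin A, is a ligand of nuclear receptors. A retinoic acid receptor (RAR) pairs with a retinoid X receptor (RXR) on DNA, at paired copies of a short hexamer, and changes the transcription of the gene nearby. Cellular retinoic acid-binding proteins carry the ligand in the cytoplasm, and enzymes of the Cyp26 family hydroxylate it and so remove it. In the brain the pathway patterns the embryonic hindbrain, and in the adult it is known for its part in the striatum, where Rarb and Rxrg are abundant, and in hippocampal plasticity.

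The promoter of Rarb is itself a textbook target of its own ligand, so the promoters of the 4 genes past the study's limits in either form of the data are shown. Windows of 300 bases, from 250 before to 50 after an annotated start, come from RefSeq (GRCm38.p6), which held 15 windows for 8 of the 9 genes. The first listed window of each gene is printed 5′ to 3′ on the strand of the gene. Capitals mark the direct repeat in Rarb, and in Rxrg a single hexamer on the opposite strand. Rarb also has a single hexamer outside the repeat, GGGTCA from base -83 to base -78, which is left in lower case.
Rarb, chr14:16575427-16575726, minus strand: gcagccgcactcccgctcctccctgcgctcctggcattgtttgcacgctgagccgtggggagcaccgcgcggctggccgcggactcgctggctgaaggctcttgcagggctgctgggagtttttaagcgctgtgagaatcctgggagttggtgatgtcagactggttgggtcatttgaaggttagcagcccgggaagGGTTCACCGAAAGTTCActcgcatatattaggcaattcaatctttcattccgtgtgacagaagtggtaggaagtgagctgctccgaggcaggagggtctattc
Rxrb, chr17:34031562-34031861, plus strand: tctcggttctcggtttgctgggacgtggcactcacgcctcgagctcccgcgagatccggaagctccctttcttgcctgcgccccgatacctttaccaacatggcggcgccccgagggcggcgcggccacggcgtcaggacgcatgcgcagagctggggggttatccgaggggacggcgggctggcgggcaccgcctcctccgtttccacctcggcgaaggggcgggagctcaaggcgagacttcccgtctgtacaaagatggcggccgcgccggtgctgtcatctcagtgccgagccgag
Rxrg, chr1:167598112-167598411, plus strand: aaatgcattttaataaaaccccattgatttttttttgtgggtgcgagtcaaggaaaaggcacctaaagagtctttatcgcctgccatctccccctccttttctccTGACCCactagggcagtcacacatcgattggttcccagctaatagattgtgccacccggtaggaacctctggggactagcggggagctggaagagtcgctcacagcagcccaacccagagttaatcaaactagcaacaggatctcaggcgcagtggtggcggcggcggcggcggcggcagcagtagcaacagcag
Cyp26b1, chr6:84593761-84594060, minus strand: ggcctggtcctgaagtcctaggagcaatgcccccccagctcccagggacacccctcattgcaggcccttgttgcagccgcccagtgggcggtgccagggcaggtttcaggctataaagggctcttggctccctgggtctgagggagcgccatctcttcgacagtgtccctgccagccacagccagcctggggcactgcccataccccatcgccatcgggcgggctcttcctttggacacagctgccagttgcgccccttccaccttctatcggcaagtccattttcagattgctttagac
The letters searched were the hexamer AGGTCA, its variant AGTTCA, a further variant GGGTCA and a last variant GGTTCA, on both strands, and they occur in 43.7% of 32851 windows of this length and in 7 of the 15 windows of these genes. A direct repeat, as searched here, is any pair of these hexamers in the same orientation with NNNNN between them, and it contains 2 of the single hexamers. It lies in 0.0974% of all windows and, among the 15, in that of Rarb alone, from base -53 to base -37 before the start. Direct repeats with spacers of 1 or 2 bases were found in none of the 15 windows. Among other genes of the pathway, Cyp26a1, whose product also removes retinoic acid, has a repeat of the same kind on the opposite strand, from base -32 to base -16. The repeats are printed with the hexamers in capitals.
Rarb, chr14:16575513-16575529: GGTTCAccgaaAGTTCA
Cyp26a1, chr19:37697776-37697792: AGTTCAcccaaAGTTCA
These matches describe the letters of the windows and say nothing of binding in these brains.

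Values are log2 signals, in which a difference of 1 is a doubling. The test was limma's moderated test (two-sided), fitted over all probe sets, and the limits are those of the study, a difference of at least 1.2-fold together with an unadjusted p below 0.05. The deposited signals were lower on the ethanol arrays as a whole, by a median log2 of -0.146 over all probe sets, so differences are given in 2 forms, as deposited and after the arrays were quantile normalized, when that median was -0.0042. As deposited, 3 of the 9 genes were past the limits and lower on the ethanol arrays, which were Rarb, Rxrb and Cyp26b1, and none was higher. The background share over all probe sets was 17.9% lower and 2.23% higher, 20.1% in all. After quantile normalization Rarb and Rxrb were lower and Rxrg was higher, against 5.87% and 5.71% of all probe sets, 11.6% in all. The median difference of the 9 genes was -0.09 as deposited and 0.06 after normalization. No member passed an adjusted p of 0.05 from limma in either form, where 0.00281% of all probe sets did as deposited and 0.00562% after normalization. An unadjusted p of 0.05 was passed by 3 members in each form, against 22.2% and 13.6%. At 1.5-fold no member passed in either form, against 4.76% and 3.5%. With each array centred on its median, Rarb was lower and Rxrg higher, against 3.91% and 9.09% of all probe sets (13% in all), and 3 genes were lower without overlap and 4 higher, against 14.8% and 36.6%. The groups did not overlap for 6 genes that were lower and 1 that was higher as deposited, against 52.7% and 7.25% of all probe sets, and for 3 in each direction after normalization, against 24.9% and 24%. With 2 arrays against 2, an exact permutation test of a single gene cannot give a two-sided p under 0.333. The p-values measure the spread between these pools.

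**Figure D1:**
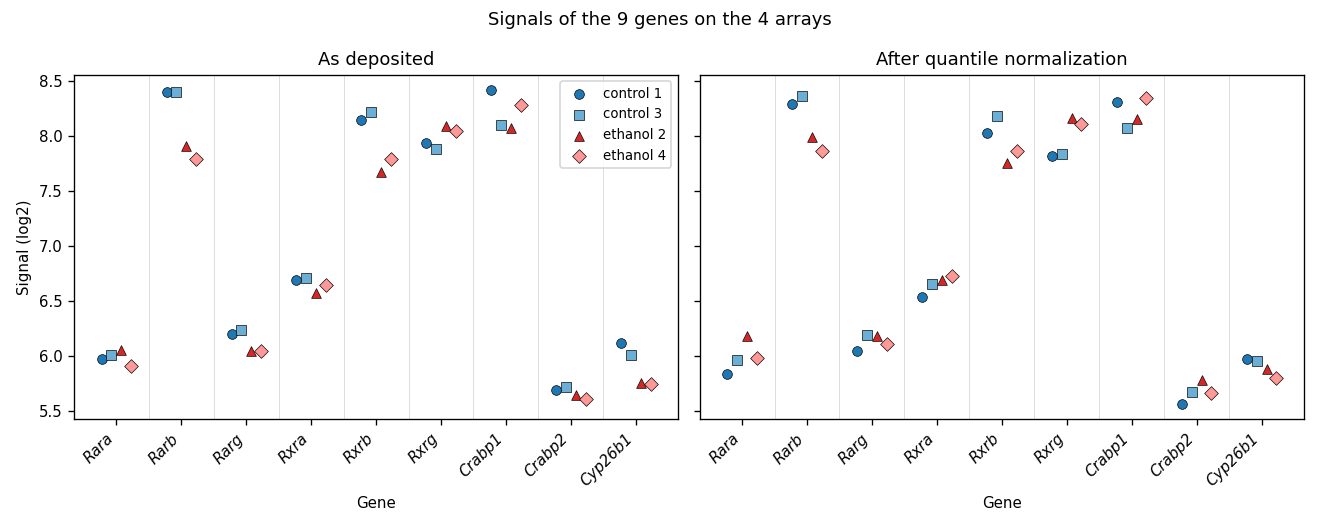
Log2 signal of each of the 9 genes (x axis) on the 4 arrays (points), as deposited on the left and after quantile normalization on the right. Rarb and Rxrb lie lower on both ethanol arrays than on both control arrays in each panel, and Rxrg lies higher.

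Rarb, which encodes the retinoic acid receptor beta, had the largest difference of the 9 genes. Its deposited log2 signal stood at 8.40 for control 1 and for control 3, and at 7.91 for ethanol 2 and 7.80 for ethanol 4. The control arrays lay within 0.0033 of each other and the ethanol arrays within 0.113, and the groups did not overlap. The difference was -0.55 (standard error 0.09, 95% interval -0.78 to -0.31, adjusted p = 0.157), so that the ethanol arrays held 68.5% of the control signal. After quantile normalization the controls stood at 8.29 and 8.37 and the ethanol arrays at 7.99 and 7.87, a difference of -0.40 (standard error 0.09, adjusted p = 0.264) or 75.7% of the control signal. On that scale 4.80% of all probe sets had a lower difference than Rarb. Rarb was past the limits under each of 16 alternatives that kept the grouping by title and gave a test, with differences from -0.60 to -0.33 and an adjusted p from 0.0696 to 0.541. A bulk signal of this kind cannot tell fewer cells that express a gene from less RNA per cell.

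The other retinoic acid receptors, Rara and Rarg, encoding the alpha and gamma forms, were not past the limits in either form of the data. Rara had control signals of 5.98 and 6.01, while ethanol 2 was at 6.05 and ethanol 4 at 5.91. The ethanol arrays lay on either side of the controls as deposited and above both after normalization. The difference was -0.01 (95% interval -0.26 to 0.24) as deposited and 0.18 (-0.11 to 0.48) after normalization. Rarg had control signals of 6.20 and 6.24, and both ethanol arrays were at 6.05, lower without overlap, at -0.17 (-0.39 to 0.05). After normalization Rarg was at 0.03 (-0.22 to 0.27) with overlapping groups. The intervals reach past 1.2-fold, a log2 of 0.263, on at least 1 side, except that of Rara as deposited, which ends just short of it, so differences of about that size in Rara or Rarg are not excluded by these arrays.

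A comparison within each array removes a shift between arrays only where it is equal at all signals. The log2 difference of Rarb from Rara, whose absolute size has no meaning because the probes differ, stood at 2.42 and 2.39 for the controls and at 1.85 and 1.88 for the ethanol-exposed pools. The pools differed by a log2 of -0.54 in this measure, which with 2 arrays a group no exact permutation test can call (p = 0.333, the smallest possible). Rara is dim, as its comparison with silent genes shows, and the pair was chosen after the values were seen. The measure therefore restates the difference of Rarb without an even shift between arrays and is no further support for it. The difference of Rarb from Rarg was lower as well, by -0.37. After normalization it was -0.43, and that of Rarb from Rara was -0.58. Rarg is dim as well by the same comparison. These ratios describe the signals of these arrays. They establish neither unequal changes of the receptors nor that any one of them stayed the same.

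**Figure D2:**
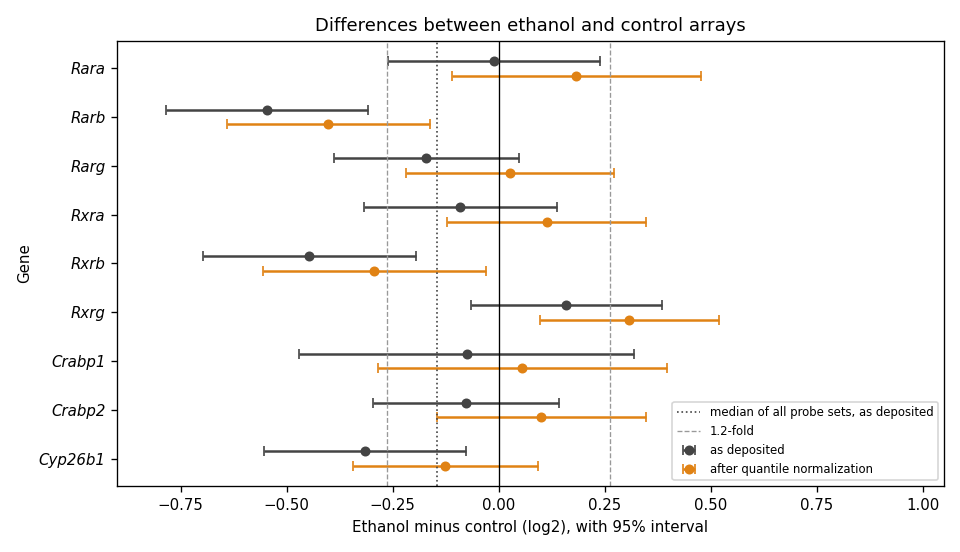
Difference between ethanol and control arrays in log2 units (x axis) for each gene, with 95% intervals from limma, as deposited (dark) and after quantile normalization (orange). Dashed lines mark 1.2-fold and the dotted line the median of all probe sets. In both forms the intervals of Rarb and Rxrb lie below 0, and that of Rxrg lies above 0 after normalization.

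Among the retinoid X receptors, which pair with the RARs and with several other nuclear receptors, Rxrb was lower and Rxrg was not. Rxrb, the beta form, had control signals of 8.14 and 8.22, with ethanol 2 at 7.67 and ethanol 4 at 7.80. Both ethanol arrays were below both controls, and the difference was -0.45 (standard error 0.09, 95% interval -0.70 to -0.20, adjusted p = 0.171), or 73.4% of the control signal. After normalization the difference was -0.29 (standard error 0.10, adjusted p = 0.345), still without overlap. With each array centred on its median it was -0.24 and short of the limits. After normalization it was also short of them without ethanol 2 (-0.24), without control 3 (-0.22) and without ethanol 4 (-0.34).

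Rxrg, the gamma form, differed in the other direction on the same arrays. Its deposited control signals were 7.94 and 7.88, and ethanol 2 was at 8.09 and ethanol 4 at 8.04, so that both ethanol arrays were above both controls. The difference was 0.16 (95% interval -0.07 to 0.39, adjusted p = 0.320) as deposited, which is not past the limits. After normalization it was 0.31 (standard error 0.08, 95% interval 0.10 to 0.52, adjusted p = 0.294) and past them, and with each array centred on its median it was 0.37. After normalization it was no longer past the limits without control 1 (0.31), control 3 (0.32) or ethanol 2 (0.27), when the p rose above 0.05. Within the arrays, the log2 difference of Rxrb from Rxrg stood at 0.21 and 0.34 for the controls. It stood at -0.42 and -0.25 for the ethanol arrays, a difference of -0.61 (exact permutation p = 0.333). This measure follows from the differences of Rxrb and Rxrg given above and is no further support for either.

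Rxra, the alpha form, had control signals of 6.69 and 6.71, with ethanol 2 at 6.57 and ethanol 4 at 6.65. It was at -0.09 (95% interval -0.32 to 0.14) as deposited and 0.11 (-0.12 to 0.35) after normalization, and the ethanol arrays changed from below the controls to above them. Its direction therefore depended on the scaling.

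Neither binding protein was past the limits. For Crabp1 control 1 stood at 8.41, control 3 at 8.10, ethanol 2 at 8.08 and ethanol 4 at 8.28. Its control arrays were 0.318 apart, the widest gap of the 9 genes, and its difference of -0.08 (95% interval -0.47 to 0.32) was within that spread. After normalization it was 0.06 (-0.28 to 0.40), so its direction turned with the scaling. Crabp2 had control signals of 5.70 and 5.72, with ethanol 2 at 5.65 and ethanol 4 at 5.61, a difference of -0.08 (-0.30 to 0.14) as deposited and 0.10 (-0.15 to 0.35) after normalization, and its direction turned with the scaling.

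Cyp26b1, which encodes the main retinoic acid hydroxylase of the adult brain, was lower as deposited, with control signals of 6.12 and 6.01, ethanol 2 at 5.76 and ethanol 4 at 5.74. The groups did not overlap, and the difference was -0.32 (standard error 0.09, 95% interval -0.55 to -0.08, adjusted p = 0.183). After normalization it was -0.13 (-0.34 to 0.09) and no longer past the limits, though both ethanol arrays remained below both controls. Cyp26b1 also lost the limits as deposited without control 1 (-0.26), without ethanol 2 (-0.32) or without ethanol 4 (-0.31).

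Signals of several of these genes were near those of genes that the brain is not expected to express. The 210 probe sets of vomeronasal and taste receptors had mean signals from 4.54 to 6.73, with a median of 5.40. Of these, 48 were at or above the mean signal of Crabp2 (5.67), 25 at or above Cyp26b1 (5.91), 21 at or above Rara (5.99), 13 at or above Rarg (6.13) and 1 at or above Rxra (6.66). None reached Rxrb (7.96), Rxrg (7.99), Rarb (8.13) or Crabp1 (8.22). As deposited, 20.5% of the receptor probe sets were themselves lower and past the limits and none was higher, beside the background shares of 17.9% and 2.23%, with a median difference of -0.21. After normalization 4.76% were lower and 1.9% higher, beside 5.87% and 5.71%. Signals of different probes are not levels of RNA on 1 scale, and the array file gives no detection call.

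**Figure D3:**
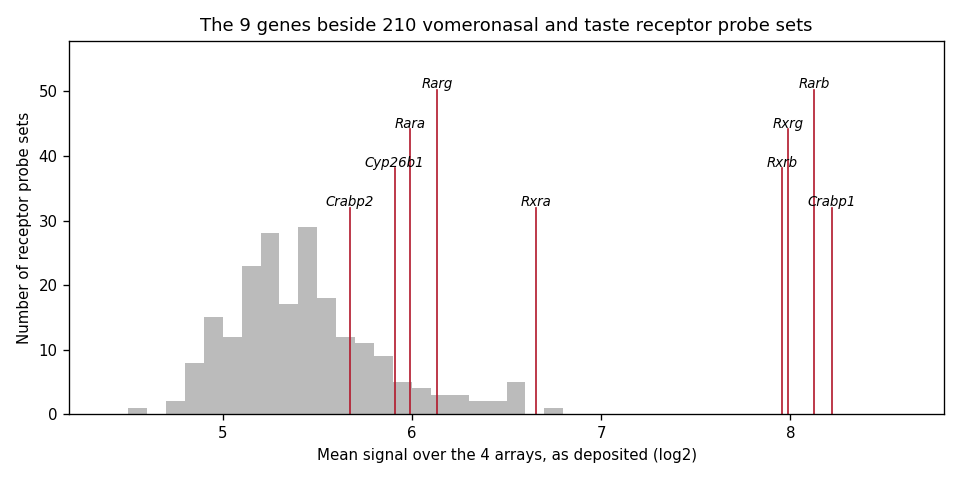
Histogram of the mean deposited log2 signal of 210 vomeronasal and taste receptor probe sets (bars, y axis in probe sets), with the mean signals of the 9 genes as vertical lines whose heights carry no value. Rarb, Rxrb, Rxrg and Crabp1 lie above all 210, and the other 5 genes lie within their range.

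The wider retinoid pathway was taken from 7 lists with 85 genes, of which 79 have a probe set naming them alone. As deposited, 12 passed the limits as lower and 1 as higher, with a median of -0.12 where that of all probe sets was -0.146, and the shares of all probe sets past the limits were 17.9% and 2.23%. After normalization 0 were lower and 4 were higher, with a median of 0.0056, against 5.87% and 5.71%. No gene of these lists passed an adjusted p of 0.05 from limma in either form, while an unadjusted p of 0.05 was passed by 16 as deposited and 6 after normalization, where the shares of all probe sets were 22.2% and 13.6%.

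Of 11 genes for the transport and storage of retinol, Rbp4, the carrier of retinol in plasma, and Stra6l, a receptor for that carrier, were lower and past the limits as deposited. Rbp4 was at -0.27 and -0.14 after normalization, and Lpl, a lipase, had the highest difference of the list at 0.06. Of 19 genes listed for retinoid oxidation, reduction or carotenoid cleavage, Rdh5, Rdh11, Rdh13 and Adh1 were past the limits as deposited, each lower. These retinol and alcohol dehydrogenases were at -0.46, -0.42, -0.40 and -0.35, and none was past the limits after normalization. Of the 210 vomeronasal and taste receptor probe sets, 83 had signals at or above that of Stra6l, 38 at or above Adh1 and 13 at or above Rdh5. Rdh10, which makes the retinaldehyde from which retinoic acid is formed, was at 0.16 as deposited and was higher after normalization, at 0.35 (standard error 0.09, adjusted p = 0.280). Its control signals were 7.11 and 6.96, with ethanol 2 at 7.13 and ethanol 4 at 7.26. None of the retinaldehyde dehydrogenases Aldh1a1, Aldh1a2 and Aldh1a3, which complete the synthesis, was past the limits in either form. They were at -0.03, -0.05 and -0.04 as deposited and at 0.03, 0.16 and 0.14 after normalization. For Aldh1a3, 45 of the 210 vomeronasal and taste receptor probe sets had signals at or above its own, and for Aldh1a2 3 did. The other hydroxylases were at -0.11 (Cyp26a1) and 0.02 (Cyp26c1), and 209 and 167 of the 210 vomeronasal and taste receptor probe sets had signals at or above theirs.

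Of 12 receptors that pair with RXRs, the vitamin D receptor Vdr (-0.41), the thyroid hormone receptor Thrb (-0.28) and the fatty acid sensor Ppard (-0.26) were lower and past the limits as deposited. None of them was after normalization, when the liver X receptor Nr1h3 was higher at 0.29 (0.13 as deposited). The signals of Vdr and Nr1h3 were dim, with 146 and 135 of the 210 vomeronasal and taste receptor probe sets at or above them. Of 12 coregulators of nuclear receptors, the corepressor scaffold Sin3a was lower as deposited (-0.30), and the acetyltransferase Ep300 was higher after normalization (0.27, and 0.18 as deposited). Of 5 orphan receptors and lipid carriers none was past the limits, and the extremes were Rora at 0.16 and Nr2f2 at -0.25.

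Among 18 genes known to respond to retinoic acid, Meis2 was the only gene of the 79 past the limits in both forms. Meis2 is a homeobox factor of the forebrain, and its control signals were 10.46 and 10.57, with ethanol 2 at 10.82 and ethanol 4 at 10.84. It was higher on both ethanol arrays without overlap, by 0.315 as deposited (standard error 0.09, adjusted p = 0.182) and 0.38 after normalization (standard error 0.09, adjusted p = 0.280). It was past the limits in 11 of the 16 alternatives that kept the grouping by title and gave a test. It was short of them as deposited without control 1 (0.26), ethanol 2 (0.33) or ethanol 4 (0.30), and after normalization without control 1 (0.31) or ethanol 4 (0.36). The homeobox genes Meis1 (-0.34) and Hoxb2 (-0.31) were lower as deposited only, and 148 of the 210 vomeronasal and taste receptor probe sets had signals at or above that of Hoxb2. Rarres2, a secreted chemoattractant, was at -0.45 and not past the limits, with control signals of 7.73 and 7.27, ethanol 2 at 6.99 and ethanol 4 at 7.11. The names beside these counts that the naming rule does not give were added after their values were seen.

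**Figure D4:**
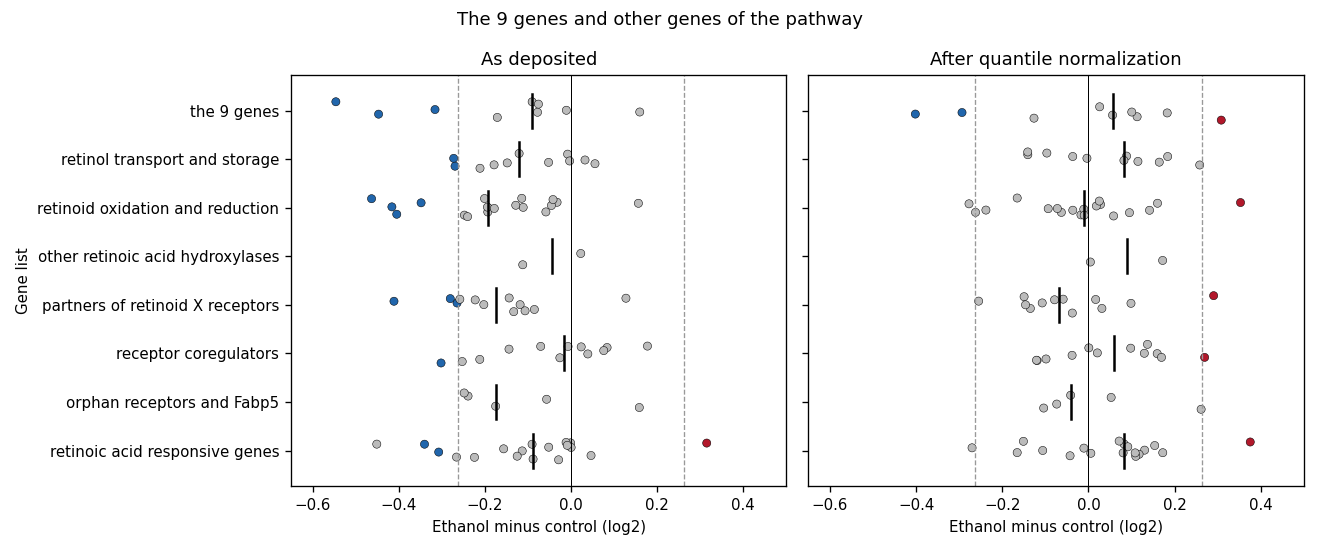
Ethanol minus control in log2 units (x axis) for the 9 genes and 7 lists of other pathway genes (rows), as deposited on the left and after quantile normalization on the right. Each point is 1 gene, blue when past the limits and lower, red when past them and higher, and the bars are list medians. Rarb and Rxrb are the only blue points after normalization.

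The direct repeat shown in the Rarb and Cyp26a1 promoters was found in windows of 31 genes, of which 11 have a probe set naming them alone. Without Rarb, 2 of the other 10 (Blvrb at -0.38 and Prss27 at -0.39) were past the limits as deposited, both lower, where the background share was 17.9%, and none was after normalization. The median of the other 10 was -0.12 as deposited and 0.03 after normalization. Mean signals of Blvrb (6.44) and Prss27 (6.31) lay within the range of the vomeronasal and taste receptor probe sets (4.54 to 6.73). So did those of Cfap45, Cyp26a1, Hbb-y and Tnfsf13b. This list was made after the values of Rarb were seen.

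The profile of Rarb over the 4 arrays was most like those of Ranbp6, Fam193b and Mak16. After each profile was centred on its mean, their Euclidean distances from Rarb over the 4 normalized arrays were 0.0327, 0.0360 and 0.0377. With 4 arrays, many probe sets have a similar profile.

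Marker genes of cell types and regions were checked beside these results. The markers of neurons, astrocytes and oligodendrocytes had signals above all 210 vomeronasal and taste receptor probe sets, with means from 7.86 (Aldh1l1) to 13.32 (Snap25). None of 7 striatal neuron markers was past the limits in either form, and their summed linear signal after normalization stood at 10693 and 11106 for the controls and 10675 and 10873 for the ethanol arrays. As deposited that sum was lower on both ethanol arrays, at 95.1% of control, as were those of 4 endothelial markers (87.7%) and 7 choroid plexus markers (87.9%), which overlapped after normalization. Pecam1 (-0.37) and Kl (-0.42) were the endothelial and choroid plexus markers past the limits as deposited. Over 5 oligodendrocyte markers the normalized sum was lower on both ethanol arrays, at 12303 and 12562 against 14387 and 13700 on the controls. That list ran from Cnp at -0.29, the only one past the limits, to Mog at -0.10. After normalization sums were higher on both ethanol arrays for 5 astrocyte markers (105.8% of control, from Slc1a3 at 0.02 to Gfap at 0.15), 5 microglial markers (106.5%, from Csf1r at 0.03 to Tmem119 at 0.27) and 7 meningeal markers (107.1%, from Col1a2 at -0.03 to Slc6a13 at 0.49). Of these lists only Slc6a13 was past the limits, in both forms (0.35 as deposited). Among all single probe sets, 24.9% were lower and 24% higher without overlap after normalization, and 52.7% and 7.25% as deposited. The part of these sums in the differences of Rarb, Rxrb and Rxrg, or in deposited ones such as that of Rbp4, was not tested. The summed signal of 7 pituitary markers was 392 on ethanol 2 and 6616 to 7486 on the other arrays, and Gh was at 6.53 on ethanol 2 as deposited and above 12 elsewhere. Pomc was the only pituitary marker past the limits, at -0.53 as deposited and -0.35 after normalization. Its signal was dim, with 41 of the 210 vomeronasal and taste receptor probe sets at or above it. As deposited, Rarb was lower on ethanol 4 than on ethanol 2, and Rxrb was lower on ethanol 2 (7.67) than on ethanol 4 (7.80). Rxrg was higher on ethanol 2 (8.09) than on ethanol 4 (8.04). Without ethanol 2 the difference of Rarb was -0.60 as deposited and -0.46 after normalization. The part of the pituitary signal in the differences of these genes was not tested.

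Under the treatment entry of the labels, which puts control 1 and ethanol 2 together as exposed, none of the 9 genes passed the limits, where the background share was 1.6% (0.686% lower and 0.917% higher), and none separated the groups, against 9.07% lower and 10.5% higher. Rarb was then at 0.06, Rxrb at -0.10 and Rxrg at 0.05. Between ethanol 2 and control 3, the arrays on which all labels agree, Rarb differed by -0.49, Rxrb by -0.55 and Rxrg by 0.21, with no test.

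**Figure D5:**
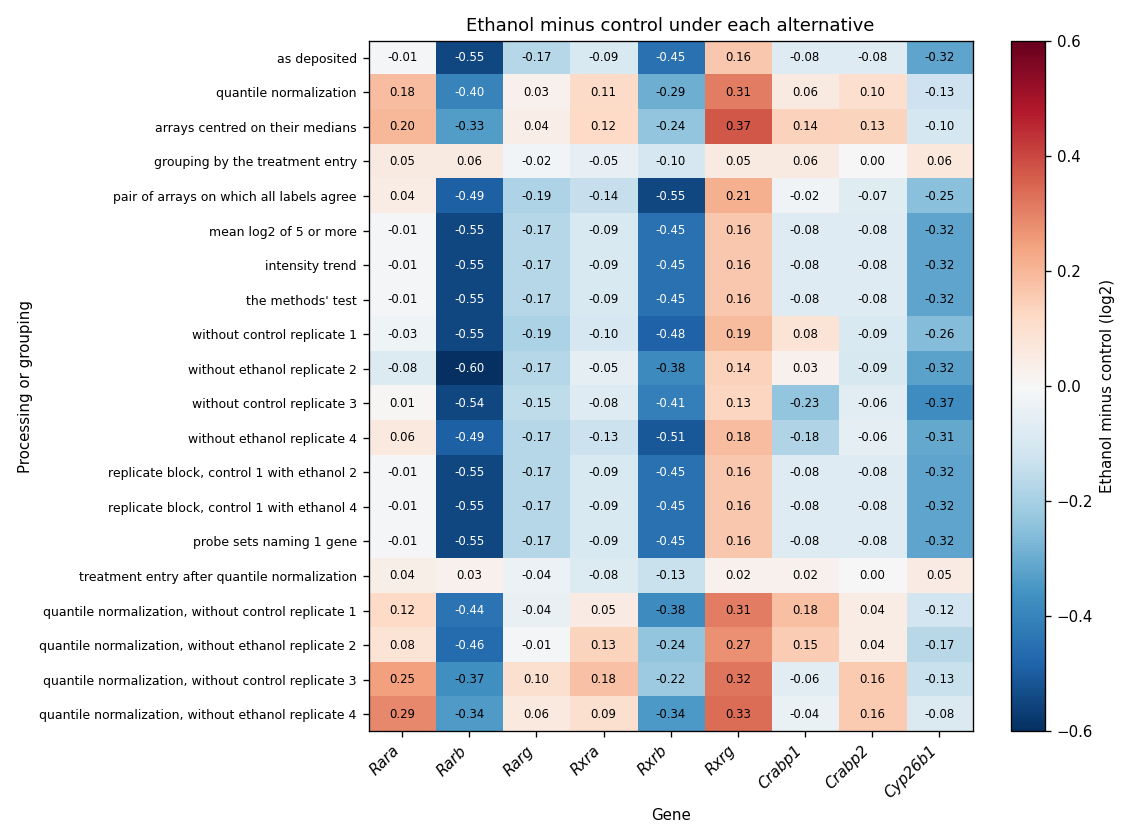
Difference between ethanol and control (log2, colour and number) for each gene (columns) under each processing or grouping (rows). Rarb ranges from -0.60 to -0.33 wherever arrays are grouped by title, and is 0.06 and 0.03 in the rows grouped by the treatment entry.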

How the data were processed

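RNA from 4 pools of 3 adult male brains was hybridized to 1 array each. The authors scanned the arrays, summarized probes to genes in Partek Genomics Suite (6.6 in the submitters' notes, another version in the methods) by RMA with GC adjustment and quantile normalization, and deposited log2 signals. The deposited medians ran from 6.33 to 6.61, so quantiles are not equal, and the values were used as deposited and after normalizeQuantiles of limma 3.58.1 (R 4.3.3). Arrays were grouped by title. Each probe set was fitted with limma with no filter, and p-values were adjusted by Benjamini-Hochberg over 35556 probe sets (degrees of freedom, 2 residual and 2.57 prior). The genome build behind the annotation is not given in the sources used here, so the only coordinates are those of the RefSeq windows. All 9 symbols matched RefSeq by Entrez ID. Lists took, for each gene, the single-gene probe set with the highest mean signal. The members, lists and tests were chosen with earlier results of these data known. The rule names all members, the highest and lowest gene of each pathway list and those past the limits in both forms, the 3 profiles nearest to the member with the largest normalized difference, Gh and Prl, and the extremes of marker lists whose sums separated the groups. The fit and the motif search were tested on simulated data. Alternatives were other scaling, grouping, test, trend and filter settings, each array left out, replicate blocks and a 1.5-fold limit. The array number limits the precision.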

Additional observations from a re-analysis of the deposited data

How the results depend on the processing

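With arrays grouped by title, Rarb and Rxrb were lower and Rxrg higher under every alternative run. As deposited, 3 members were past the limits and lower and 0 higher, 12 pathway genes lower and 1 higher, 6 members apart and lower and 1 higher, and the members' median was -0.09. These are given in that order for quantile normalization and for median centring, and for the other settings only in part.
After quantile normalization they were 2 and 1, 0 and 4, 3 and 3, and 0.056, and the sign turned for Rara (0.18), Rarg (0.026), Rxra (0.11), Crabp1 (0.056), Crabp2 (0.10) and Cyp26a1 (0.0046). With arrays centred on their medians they were 1 and 1, 0 and 7, 3 and 4, and 0.121, and it turned for Rara (0.20), Rarg (0.041), Rxra (0.12), Crabp1 (0.14), Crabp2 (0.13) and Cyp26a1 (0.10). Quantile normalization brought the median difference of all probe sets to -0.0042. Centring left more probe sets higher than lower on the ethanol arrays. Past the limits were 3.91% lower and 9.09% higher, and apart were 14.8% lower and 36.6% higher. The centred values above carry that upward shift.
Grouping by the treatment entry gave 0 for each count and a median of 0.0528, and turned Rara (0.054), Rarb (0.055), Crabp1 (0.056), Crabp2 (0.0030), Cyp26b1 (0.064), Rbp4 (0.053), Rdh5 (0.11), Cyp26a1 (0.016), Ep300 (-0.0066), Sin3a (0.020), Meis2 (-0.064), Rarres2 (0.17), Rdh13 (0.13), Ppard (0.036), Thrb (0.087), Hoxb2 (0.14) and Meis1 (0.13). The same grouping after quantile normalization, added after the data were seen, gave 0 for each count and a median of 0.0237, and turned Rara (0.037), Rarb (0.025), Crabp1 (0.024), Crabp2 (0.0015), Cyp26b1 (0.051), Lpl (-0.022), Rbp4 (0.030), Rdh10 (-0.029), Rdh5 (0.090), Cyp26a1 (0.016), Ep300 (-0.018), Meis2 (-0.085), Rarres2 (0.15), Rdh13 (0.10), Ppard (0.0096), Thrb (0.064), Hoxb2 (0.14) and Meis1 (0.097). For this last setting the shares of all probe sets past the limits were 1.36% lower and 1.41% higher. The shares apart were 14.8% lower and 12.7% higher. The cause of the turned signs was not tested.
Without 1 array, 6 to 7 members were apart and lower and 1 to 2 higher, and the median ran from -0.170 to -0.095. The shares of all probe sets apart were 60.1% to 70.7% lower and 11.8% to 17% higher. Single genes that turned were Rara from -0.081 to 0.060, Crabp1 from -0.23 to 0.083, Cyp26c1 from -0.12 to 0.16 and Nr1h3 from -0.023 to 0.28. Without 1 array after quantile normalization (added after the data were seen), 3 to 4 members were apart and lower and 4 to 5 higher. The shares of all probe sets apart were then 37.5% to 38.3% lower and 35.5% to 37.6% higher. Leaving out control 1, the median was 0.045 and the sign turned for Rara (0.12), Rxra (0.051), Crabp1 (0.18) and Crabp2 (0.045). Leaving out ethanol 2, the median was 0.044 with Rara (0.081), Rxra (0.13), Crabp1 (0.15) and Crabp2 (0.044). Leaving out control 3, it was 0.096 with Rara (0.25), Rarg (0.096), Rxra (0.18), Crabp2 (0.16) and Cyp26a1 (0.014). Leaving out ethanol 4, it was 0.059 with Rara (0.29), Rarg (0.059), Rxra (0.094), Crabp2 (0.16) and Cyp26a1 (0.031). A lone array is assumed to vary like the other group.
The labels share no replicate numbers between groups. Under a replicate block, with either pairing of the arrays, 3 members were lower and 0 higher, as without it. Pathway genes that were lower numbered 9 and 8. The shares of all probe sets were 17% and 16.7% lower and 2.75% and 2.34% higher. Deviations from the group means correlated at 0.0716 and -0.0716 in these pairings.
Between ethanol 2 and control 3 alone, 2 members were higher on the ethanol array, against 25% of all probe sets. The median was -0.141 and Rara (0.044) turned. The methods' test found 7 pathway genes lower, where 8.11% of all probe sets were. At 1.5-fold no member or pathway gene was past the limits in either direction.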
